A study of Caenorhabditis elegans with 6 samples.

Results

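The genes described here encode the contractile apparatus of *C. elegans* muscle: the proteins of the thick and thin filaments, those that anchor the filaments to the cell membrane and the matrix, and those that store and release calcium. They were chosen by name, from a list of 39 genes, and 37 of the 39 had at least 1 probe set that the array annotation assigns to a single gene, out of 17118 genes measured in this way. *act-1* and *act-2*, a pair of actin genes, had none, since every probe set that reads them is also assigned to another actin gene. RNA came from whole N2 wild-type animals that were grown on *E. coli* OP50 at 20°C to the late L4 larval stage and then kept in 2 mL of liquid S-basal medium with OP50, at 15°C, for 15 hours. The RPW-24 group received 70 µM of RPW-24, a synthetic compound that lengthens survival of infected nematodes, and the control group received the solvent DMSO. DMSO was at 1% in both groups and no pathogen was present. Each group comprised 3 biological replicates, named by the letters G, H and I and read on 1 Affymetrix whole genome array each, and both treatments of a letter were run in parallel.

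Muscle shortens when myosin heads of the thick filament pull on actin of the thin filament. Calcium released inside the cell binds troponin, which shifts tropomyosin along actin and lets myosin bind. In body wall muscle of *C. elegans* the thin filaments end at dense bodies and the thick filaments are held at M-lines, and both structures are tied by integrin to the basement membrane, so that force reaches the cuticle and bends the animal. The pharynx, which pumps in food, is a separate muscle with its own myosin heavy chains and some of its own troponin subunits.

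The values are linear intensities in arbitrary units, with a lowest value of 4.39 that the arrays share. Of the 37 genes, 30 had a mean log2 intensity of at least 5 (an intensity of about 32), and every array of these 30 lay above 32, from 50.7 upwards. The other 7 (*myo-1*, *myo-2*, *myo-3*, *unc-22*, *ttn-1*, *tnt-3* and *tnt-4*) did not reach that level, with no array above 41.6. Of the genes that define body wall muscle, *unc-54* and *unc-15* were bright, but *myo-3* was dim, and the probe sets of the pharyngeal myosins *myo-1* and *myo-2* and of the muscle transcription factor *hlh-1* lay at or near the lowest intensity on all arrays. The pharyngeal myosins could therefore not be followed here. In which muscles or other cells the bright genes were read was not tested. In RNA of whole animals, fewer or more cells of a type and less or more RNA per cell cannot be told apart.

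No muscle gene passed a Benjamini-Hochberg adjusted p under 0.05 from limma in either direction, where 2.63% of all 17118 genes were called higher and 1.08% lower, and 5.36% and 2.35% of the 7365 genes with a mean log2 intensity of at least 5. None reached the 3-fold change at an unadjusted p under 0.025 that the methods of the study require, which 1.63% of all genes met in the higher direction and 0.38% in the lower, and 3.05% and 0.801% of the genes at that level. At an unadjusted p under 0.05 limma gave 10 muscle genes higher and 1 lower, against 7.1% and 8.2% of all genes. The methods' t-test, run here in a plain unpaired form on linear intensities, gave at that p 8 higher and 1 lower, against 6.05% and 6.74% of all genes. Among genes with a mean log2 intensity of at least 5, 14.2% were higher and 18.2% lower at an unadjusted p under 0.05 from limma, and of the 30 muscle genes at this level 10 were higher and 0 lower. Changes were small. All but *tnt-3* had a log2 fold change of less than 1 in size, and the values ran from -1.04 to 0.77 with a median of 0.15. The median over all genes tested was -0.00. At a mean log2 intensity of at least 5 the median was 0.29 for the 30 muscle genes and -0.07 for all genes.

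**Figure D1:**
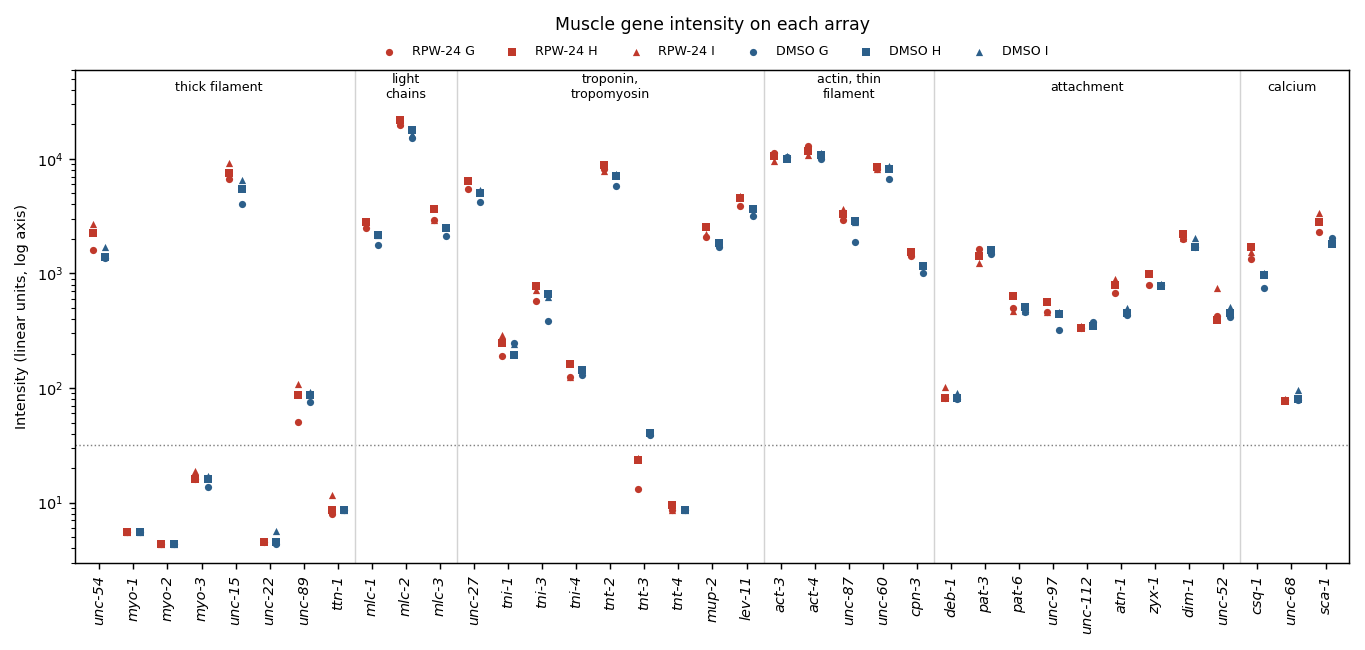
Intensity of the 37 muscle genes on each of the 6 arrays, on a log axis and grouped by role, with RPW-24 arrays (red) left of DMSO arrays (blue) and a marker shape for each replicate letter. The dotted line is at 32. The RPW-24 points of the 3 myosin light chains, of *atn-1* and of *csq-1* lie above their DMSO points, while *myo-1*, *myo-2* and *unc-22* lie close to 4.39.

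The thick filament is built of myosin heavy chains around a core of paramyosin. *unc-54*, the major myosin heavy chain of body wall muscle, was at 1603, 2246 and 2689 in RPW-24 and at 1371, 1396 and 1714 in DMSO (replicates G, H and I). The groups overlapped, since the RPW-24 array of replicate G lay below the DMSO array of replicate I, although RPW-24 was higher within each letter. Its log2 fold change was 0.52, with a 95% interval from -0.07 to 1.11 (adjusted p = 0.402 from limma). *unc-15*, which encodes paramyosin, was at 6656, 7504 and 9241 in RPW-24 and at 4069, 5469 and 6598 in DMSO. Here the groups did not overlap, but replicates within each group were widely spread, and G was the lowest and I the highest in both. The log2 fold change of *unc-15* was 0.55, with an interval from -0.05 to 1.15 (adjusted p = 0.382 from limma). Its dimmer probe sets had log2 fold changes of 0.55 and 0.44.

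*unc-89*, an obscurin-like giant protein of the M-line, was at 50.7, 86.5 and 108 in RPW-24 and at 75.9, 86.5 and 92.2 in DMSO, so the RPW-24 arrays surrounded the DMSO arrays. The minor body wall myosin *myo-3* was dim, at 16.1, 16.1 and 18.9 in RPW-24 and 13.8, 16.1 and 17.1 in DMSO. The giant kinases *unc-22* (twitchin) and *ttn-1* (a titin-like protein) did not exceed 11.6 on any array with their brightest probe sets. *myo-1* and *myo-2* were listed at 5.52 and 4.40 on all 6 arrays. For these 5 dim genes the arrays could not show whether RNA changed.

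All 3 myosin light chain genes had higher intensities on each RPW-24 array than on any DMSO array. Such a separation was found for 16.2% of all genes with a mean log2 intensity of at least 5. Light chains bind the neck of the myosin head, *mlc-1* and *mlc-2* as regulatory and *mlc-3* as essential light chain. *mlc-1* was at 2478, 2796 and 2886 in RPW-24 and at 1777, 2172 and 2185 in DMSO, a log2 fold change of 0.42 with an interval from 0.12 to 0.71 (adjusted p = 0.169 from limma). *mlc-2* was at 19615, 21770.1 and 20371 in RPW-24 and at 15198, 17982 and 16623 in DMSO, a log2 fold change of 0.31 (adjusted p = 0.15 from limma). These genes are near-identical copies, and a probe set assigned to both had a log2 fold change of 0.35. Whether the signals of their own probe sets are independent was not tested. *mlc-3* was at 2898, 3626 and 2929 in RPW-24 and at 2119, 2503 and 2518 in DMSO, a log2 fold change of 0.40 (adjusted p = 0.23 from limma). Its dimmer probe set had a log2 fold change of 0.61. In all 3 genes the gap between the lowest RPW-24 array and the highest DMSO array was smaller than the range within either group.

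Troponin has 3 kinds of subunit, of which troponin I holds the filament off and troponin T ties the complex to tropomyosin. The body wall forms *unc-27* (troponin I), *mup-2* and *tnt-2* (troponin T) and the tropomyosin gene *lev-11* had log2 fold changes between 0.29 and 0.37, and in each of them the groups did not overlap. Of all genes with a mean log2 intensity of at least 5, 16.2% separated in this direction. *unc-27* was at 5407, 6452 and 6512 in RPW-24 and at 4162, 5030.3 and 5359 in DMSO, with the lowest RPW-24 value just above the highest DMSO value (adjusted p = 0.338 from limma). *mup-2* was at 2060.5, 2538 and 2200.0 in RPW-24 and at 1686, 1844 and 1883 in DMSO (adjusted p = 0.205 from limma). *tnt-2* was at 8145, 8769 and 7788 in RPW-24 and at 5831, 7021 and 7395 in DMSO (adjusted p = 0.317 from limma). These 3 genes thus had similar log2 fold changes above 0, none of them past the threshold.

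*lev-11* was at 3861, 4594 and 4777 in RPW-24 and at 3191, 3623 and 3365 in DMSO, a log2 fold change of 0.37 (adjusted p = 0.175 from limma). Its 5 probe sets at a mean log2 intensity of at least 5 had log2 fold changes from 0.19 to 0.37. The other troponin I genes varied more between replicates. *tni-3* was at 581, 775 and 724 in RPW-24 and at 382, 664 and 628 in DMSO, and *tni-1* at 189, 249 and 291 in RPW-24 and 249, 196 and 242 in DMSO, both with overlapping groups. *tni-4*, the troponin I of the pharynx, was at 124, 161 and 124 in RPW-24 and at 129, 143 and 148 in DMSO, with a log2 fold change of -0.04 and an interval from -0.39 to 0.30.

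The troponin T gene *tnt-3* went the other way. It was at 13.03, 23.6 and 24.5 in RPW-24 and at 39.2, 40.2 and 41.6 in DMSO, so all RPW-24 arrays lay below all DMSO arrays. Its log2 fold change was -1.04, with an interval from -1.77 to -0.31 (adjusted p = 0.169 from limma). The probe set is dim, with all RPW-24 arrays under 32. Replicate G, the array at 13.03, widened the spread, and without it the log2 fold change was -0.74 (adjusted p = 0.018 from limma). Over all alternatives run for *tnt-3*, the adjusted p lay between 0.00466 (arrays centred on their medians) and 0.42. *tnt-4*, the troponin T of the pharynx, was at 8.59, 9.64 and 8.59 in RPW-24 and at 8.59 on all DMSO arrays, too low to judge.

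**Figure D2:**
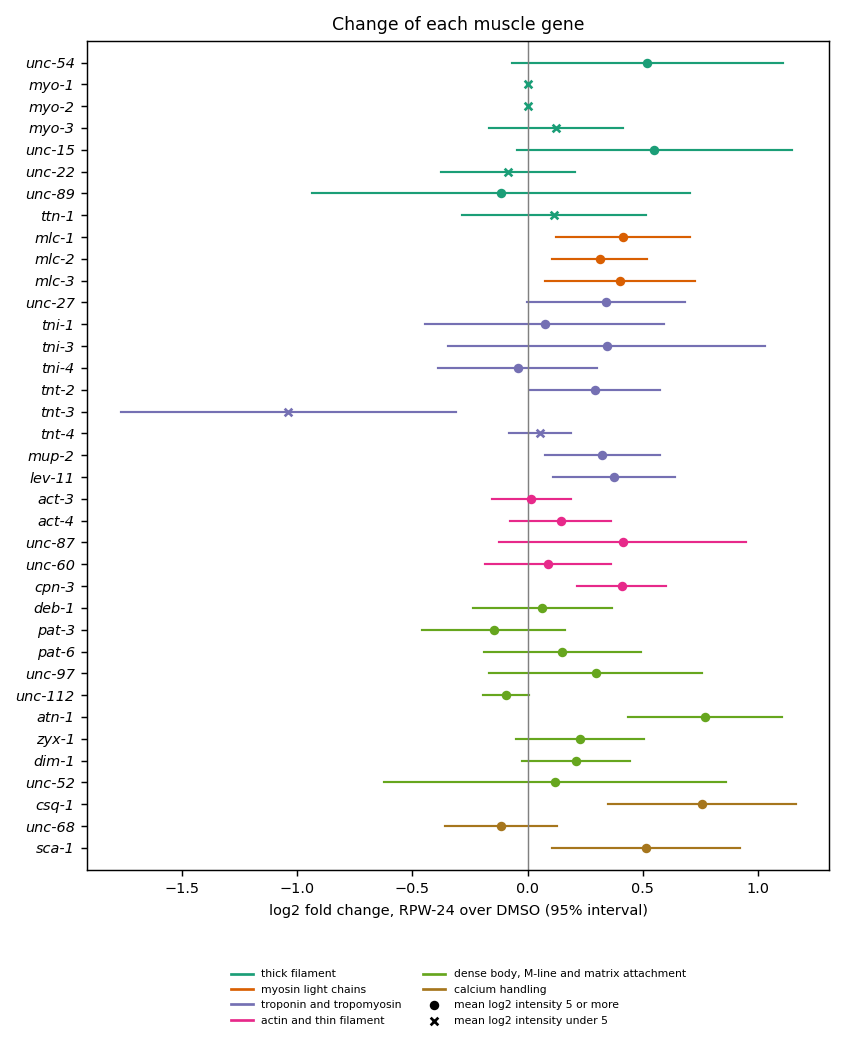
Log2 fold change of each muscle gene in RPW-24 over DMSO (points) with its 95% interval from limma (lines), coloured by role, with crosses for genes whose mean log2 intensity is under 5. Intervals of the 3 light chains, *tnt-2*, *mup-2*, *lev-11*, *cpn-3*, *atn-1*, *csq-1* and *sca-1* lie above 0 and that of *tnt-3* lies below it, before any correction for the number of genes tested.

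Actin itself did not separate the groups. *act-3* was at 11205, 10529.8 and 9587 in RPW-24 and at 10406, 10016 and 10484 in DMSO, a log2 fold change of 0.02 with an interval from -0.15 to 0.19. *act-4* was at 12826, 11778 and 10765 in RPW-24 and at 9931, 10862 and 11149.9 in DMSO, a log2 fold change of 0.15 with an interval from -0.07 to 0.36. The probe sets assigned to several actin genes, which are outside the selection, had log2 fold changes of 0.03, 0.12 and -0.08. *unc-60*, which encodes the actin-severing protein cofilin, was at 8192, 8463 and 8226 in RPW-24 and at 6702, 8226 and 8610.4 in DMSO. Its 5 probe sets gave log2 fold changes from -0.22 to 0.11, and the sign differed between them.

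Of the calponin-like proteins that bind along actin, *cpn-3* and *unc-87* both had a log2 fold change of 0.41. *cpn-3* was at 1423, 1526 and 1499.9 in RPW-24 and at 1012, 1159.6 and 1187 in DMSO, with a tight group on either side and a clear gap between them. Its mean was 1483 ± 53.3 (SD, n = 3) in RPW-24 and 1119.6 ± 94.3 (SD, n = 3) in DMSO, with a 95% interval of the log2 fold change from 0.22 to 0.60 (adjusted p = 0.0701 from limma). *unc-87* was at 2937, 3315 and 3661 in RPW-24 and at 1875, 2874 and 2805 in DMSO. The lowest RPW-24 array exceeded the highest DMSO array by little, and the DMSO array of replicate G was far below the others. Its interval ran from -0.12 to 0.95 (adjusted p = 0.474 from limma). The dimmer probe sets of *unc-87* had log2 fold changes of 0.27 and 0.22.

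Of the 9 genes for dense bodies, M-lines and matrix attachment, *atn-1* had the largest change. It encodes alpha-actinin, which cross-links actin in the dense body. *atn-1* was at 672, 792 and 903 in RPW-24 and at 432, 451 and 497 in DMSO, and the groups did not overlap. Its mean was 789 ± 115 (SD, n = 3) in RPW-24 and 460.1 ± 33.2 (SD, n = 3) in DMSO. The geometric means differed 1.71-fold, which is 0.77 on the log2 scale with a standard error of 0.13 and an interval from 0.44 to 1.10, and its adjusted p = 0.0583 from limma was the lowest of the 37 genes.

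The genes of the integrin adhesion itself had smaller log2 fold changes, of mixed sign. *pat-3*, the beta integrin, was at 1628, 1413 and 1228 in RPW-24 and at 1463, 1616 and 1623 in DMSO, a log2 fold change of -0.15. Its dimmer probe set had a log2 fold change of -0.20. There the RPW-24 arrays at 1034, 1126 and 1140 lay below the DMSO arrays at 1461, 1149 and 1197. *unc-112*, which encodes the integrin activator kindlin, was at 336, 331 and 349.7 in RPW-24 and at 374, 349.7 and 362 in DMSO, a log2 fold change of -0.09 with an interval from -0.19 to 0.00. The parvin gene *pat-6* and the vinculin gene *deb-1* had log2 fold changes of 0.15 and 0.06, and *unc-97*, which encodes PINCH, had 0.30, all with overlapping groups. *unc-52*, the perlecan of the basement membrane under muscle, was at 422, 391.5 and 743 in RPW-24 and at 416, 452 and 509 in DMSO, and its RPW-24 mean rests on the array of replicate I. Its dimmer probe set at a mean log2 intensity of at least 5 had a log2 fold change of -0.25.

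*zyx-1* encodes zyxin, an adaptor of the dense body. It was at 794, 984 and 1015 in RPW-24 and at 787, 776 and 812 in DMSO, a log2 fold change of 0.23 (adjusted p = 0.441 from limma). The RPW-24 array of replicate G lay within the DMSO range, and without it the log2 fold change was 0.34 (adjusted p = 0.0333 from limma), the lowest of the alternatives run for *zyx-1*, which reached 0.705. *dim-1*, an immunoglobulin-domain protein found near dense bodies, was at 1995, 2214 and 2050.2 in RPW-24 and at 1692, 1709 and 2026 in DMSO, a log2 fold change of 0.21. Its dimmer probe set had a log2 fold change of 0.36, and there the RPW-24 arrays at 1138, 1110.4 and 1254 lay above the DMSO arrays at 872, 892 and 960.4 (adjusted p = 0.0689 from limma).

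Among the calcium genes, *csq-1* had a log2 fold change close to that of *atn-1*, while the groups overlapped for *unc-68*. *csq-1* encodes calsequestrin, which stores calcium in the sarcoplasmic reticulum. It was at 1344, 1704 and 1549 in RPW-24 and at 750.4, 974 and 1006 in DMSO, so the groups did not overlap. Its mean was 1532 ± 180.5 (SD, n = 3) in RPW-24 and 910.2 ± 139 (SD, n = 3) in DMSO, a log2 fold change of 0.76 (standard error 0.16) with an interval from 0.35 to 1.16 (adjusted p = 0.0952 from limma). *sca-1*, the pump that returns calcium to the reticulum, was at 2311, 2786 and 3378 in RPW-24 and at 2040.2, 1809 and 2024 in DMSO, a log2 fold change of 0.51 (adjusted p = 0.223 from limma).

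The 4 probe sets of *sca-1* disagreed. The next brightest was at 2021, 2099.8 and 2236 in RPW-24 and at 796, 1064 and 1274 in DMSO, a log2 fold change of 1.05 (adjusted p = 0.0701 from limma), whereas the other two had log2 fold changes of -0.17 and 0.00. *unc-68*, the ryanodine receptor through which calcium leaves the reticulum, was at 78.9, 76.7 and 80.2 in RPW-24 and at 78.9, 81.0 and 96.4 in DMSO, a log2 fold change of -0.11. Over the 16 muscle genes with several probe sets at a mean log2 intensity of at least 5, the sign was shared in 11 and mixed in 5 (*deb-1*, *sca-1*, *unc-52*, *unc-60* and *unc-97*).

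Across the set, with the brightest probe set of each gene, 13 genes had all RPW-24 arrays above all DMSO arrays, and *tnt-3* alone had all RPW-24 arrays below. Of all genes, 8.4% separated in the higher direction and 10.4% in the lower. At a mean log2 intensity of at least 5, these shares were 16.2% and 22.7%, against 13 and 0 of 30 muscle genes. Within the pairs of the same letter, 18 of the 30 muscle genes at this level were higher in RPW-24 in 3 of 3 pairs and 1 (*unc-112*) was lower in 3 of 3, where 21.1% of all genes at this level were higher and 32.9% lower in 3 of 3 pairs. The median log2 difference of the 37 genes was 0.22 in pair G, 0.22 in pair H and 0.21 in pair I. Their call depended on which probe sets entered the test. Over probe sets with a mean log2 intensity of at least 5, limma called 5 of the 30 muscle genes higher at an adjusted p under 0.05 (*atn-1*, *csq-1*, *cpn-3*, *mlc-1* and *mlc-2*) and none lower, where 10.3% of all genes at this level were called higher and 6.8% lower. Blocking on the replicate letter as well, limma called 8 higher (these 5 with *unc-15*, *unc-27* and *lev-11*) and none lower, against 10.1% and 4.34%. With the block and no limit on level, none was called.

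**Figure D3:**
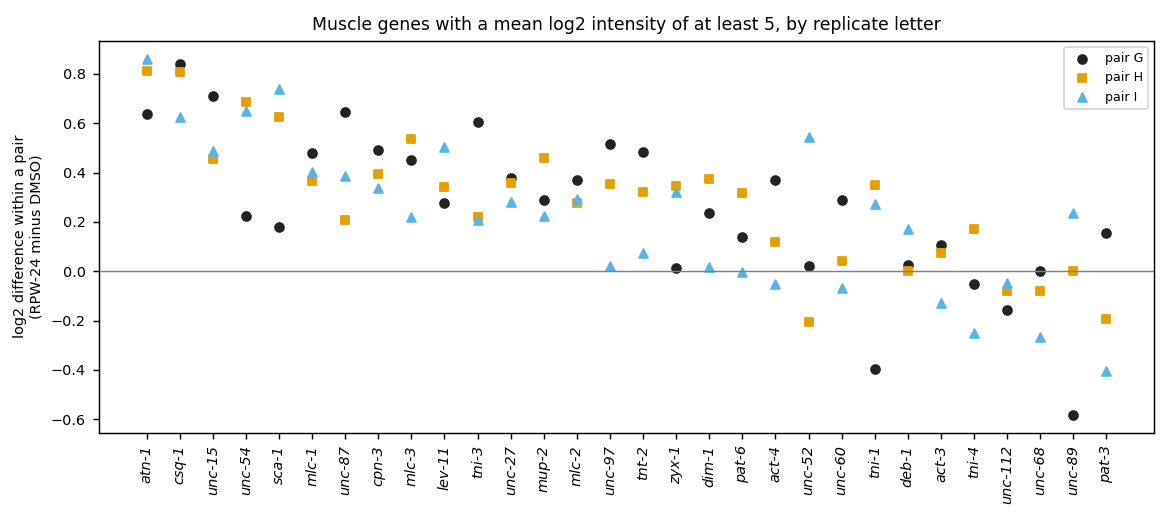
Log2 difference of RPW-24 minus DMSO within each replicate letter, for the 30 muscle genes with a mean log2 intensity of at least 5, ordered by their log2 fold change. The 3 pairs lie above 0 for 18 genes, and below 0 for *unc-112*.

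The muscle genes also differed between replicate letters, a pattern chosen after the values were seen. Among the 30, the G array was the lowest of its group, or tied for lowest, for 25 genes in DMSO and for 21 in RPW-24. Of all genes at this level, 38.5% had G lowest in DMSO and 49.8% in RPW-24. In 18 of the 30, among them *unc-54*, *unc-15*, *mlc-1*, *lev-11* and *csq-1*, G was lowest in both groups, against 18.8% of all genes at this level. A tie with G counted as G lowest in all of these counts and shares. Among the 30 this applied to *deb-1*, with G and H both at 81.9 in RPW-24.

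Level and change can also be set side by side. The 18 muscle genes with a mean log2 intensity of at least 10 had a median log2 fold change of 0.36, where the 2897 genes at that level had -0.09. The 7 muscle genes from 8 to 10 had a median of 0.23, against -0.11 over 2214 genes, and the 5 from 5 to 8 had -0.04, against 0.01 over 2254 genes. The higher values in RPW-24 were mostly those of the brightly measured genes.

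A second list of 96 genes that act in or beside muscle, but are not part of the first, was also read, and 94 of the 96 had a probe set assigned to 1 gene. Of the 94, 47 had a mean log2 intensity of at least 5. At an adjusted p under 0.05 from limma, 2 of the 94 were higher and none was lower, where 2.63% of all genes were called higher and 1.08% lower. At an unadjusted p under 0.05 these counts were 11 and 0, against 7.1% and 8.2% of all genes. Over the 47 alone they were again 11 and 0, where 14.2% of all genes at that level were higher and 18.2% lower. The median log2 fold change of the 47 was 0.05, against -0.07 for all genes at that level and 0.29 for the 30 muscle genes. *alp-1*, which encodes a PDZ and LIM domain protein of the dense body, was at 159.6, 176 and 168 in RPW-24 and at 86.0, 90.0 and 112.1 in DMSO. It rose by a log2 fold change of 0.81, with an interval from 0.50 to 1.13 (adjusted p = 0.0424 from limma). *cpn-4*, another calponin gene, was at 285, 371 and 303 in RPW-24 and at 179.7, 198 and 181 in DMSO, and rose by a log2 fold change of 0.77 (adjusted p = 0.0462 from limma). Both calls were close to the threshold, and once the fit was blocked on the letter, limma gave an adjusted p of 0.147 for *alp-1* and of 0.0927 for *cpn-4*.

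Among the other roles, *mua-6*, an intermediate filament protein of the epidermis that links muscle to cuticle, was at 539, 626 and 729 in RPW-24 and at 329, 269 and 346 in DMSO, a log2 fold change of 1.00 (adjusted p = 0.0508 from limma). The 8 measured genes for this epidermal attachment had log2 fold changes from 0.03 to 1.00. Of the 8, 6 had a mean log2 intensity of at least 5, with log2 fold changes from 0.15 to 1.00, and the others were too dim to judge. At an unadjusted p under 0.05 from limma 2 of the 8 were higher, against 7.1% of all genes and 14.2% of those with a mean log2 intensity of at least 5. *itr-1*, the inositol trisphosphate receptor, had a log2 fold change of 1.03 (adjusted p = 0.155 from limma), and the LIM domain gene *lim-9* had 0.42 (adjusted p = 0.108 from limma). The sarcoglycan gene *sgca-1* had 0.44 (adjusted p = 0.339 from limma) and the collagen IV gene *emb-9* 0.34 (adjusted p = 0.503 from limma). In the lower direction, the myosin chaperone gene *unc-45* had -0.21, the capping protein gene *cap-2* -0.16, *pak-1*, a kinase, -0.38, the laminin gene *lam-2* -0.28, the dystrobrevin gene *dyb-1* -0.26 and *lev-10*, which clusters acetylcholine receptors, -0.19. None of these 6 passed the threshold, and adjusted p ran from 0.348 for *lev-10* to 0.704 for *dyb-1*, from limma. *lam-2* and *dyb-1* were dim, with no array above 19.2 and 9.76, so the arrays could not show whether their RNA changed. The 8 muscle and pharynx transcription factor genes had log2 fold changes between -0.04 and 0.10, but 1 of the 8 had a mean log2 intensity of at least 5.

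Markers of other tissues were read in the same comparison, where 7.1% of all genes were higher and 8.2% lower at an unadjusted p under 0.05, and 14.2% and 18.2% of those with a mean log2 intensity of at least 5. All 16 germline genes had log2 fold changes below 0, from -0.45 to -0.09 with a median of -0.24. All genes with a mean log2 intensity of at least 5 had a median of -0.07 and quartiles of -0.21 and 0.12. The summed intensity of the 16 germline genes was between 88267 and 102349 in RPW-24 and between 110253 and 114155 in DMSO. None of the 16 passed an adjusted p under 0.05 from limma, and 8 were lower at an unadjusted p under 0.05. Of 11 intestinal markers, 5 were higher and 1 lower at an unadjusted p under 0.05, with a median log2 fold change of 0.42 and summed intensities between 43516 and 54806 in RPW-24 and between 47802 and 61528 in DMSO. Of 16 neuronal markers, 3 rose at an adjusted p under 0.05 from limma (*egl-3* and *egl-21*, which process neuropeptides, and *ric-4*, named after its value was seen, with log2 fold changes of 1.01, 0.72 and 0.50) and none fell. This compares with 2.63% and 1.08% of all genes, and 5.36% and 2.35% of those with a mean log2 intensity of at least 5. The median log2 fold change was 0.02 over the 16 markers and 0.55 over the 6 at that level. Their summed intensities, between 6084 and 6736 in RPW-24 and between 5566 and 6086 in DMSO for all 16, overlapped. Blocking on the letter ended the calls of *egl-3* (adjusted p = 0.175 from limma) and *ric-4* (adjusted p = 0.124 from limma), but not that of *egl-21* (adjusted p = 0.0411 from limma). The median of 11 markers of hypodermis was -0.03 and their sums, between 80532 and 85013 in RPW-24 and between 78766 and 83584 in DMSO, overlapped. Of 10 sperm genes, 2 had a mean log2 intensity of at least 5. The summed intensity of all 10 was between 639 and 690.0 in RPW-24 and between 721 and 771 in DMSO. Over the muscle genes by role, the summed intensity of the 8 thick filament genes was between 8348 and 12083 in RPW-24 and between 5553 and 8446 in DMSO, and that of the 5 actin and thin filament genes was between 33740 and 36583 in RPW-24 and between 29925 and 34236 in DMSO. In both of these roles the groups overlapped. The sums did not overlap for the 3 light chains (24992 to 28192 in RPW-24 and 19095 to 22657 in DMSO), the 9 troponin and tropomyosin genes (20388 to 23570 in RPW-24 and 15678 to 19069 in DMSO), the 9 attachment genes (6889 to 7402 in RPW-24 and 6021 to 6848 in DMSO) and the 3 calcium genes (3734 to 5008 in RPW-24 and 2864 to 3126 in DMSO). Such sums weigh the brightest genes most. Singly, 1 of the 9 attachment genes (*atn-1*) separated the groups in the higher direction, against 16.2% of all genes with a mean log2 intensity of at least 5. The part of other tissues in the higher muscle values was not tested.

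**Figure D4:**
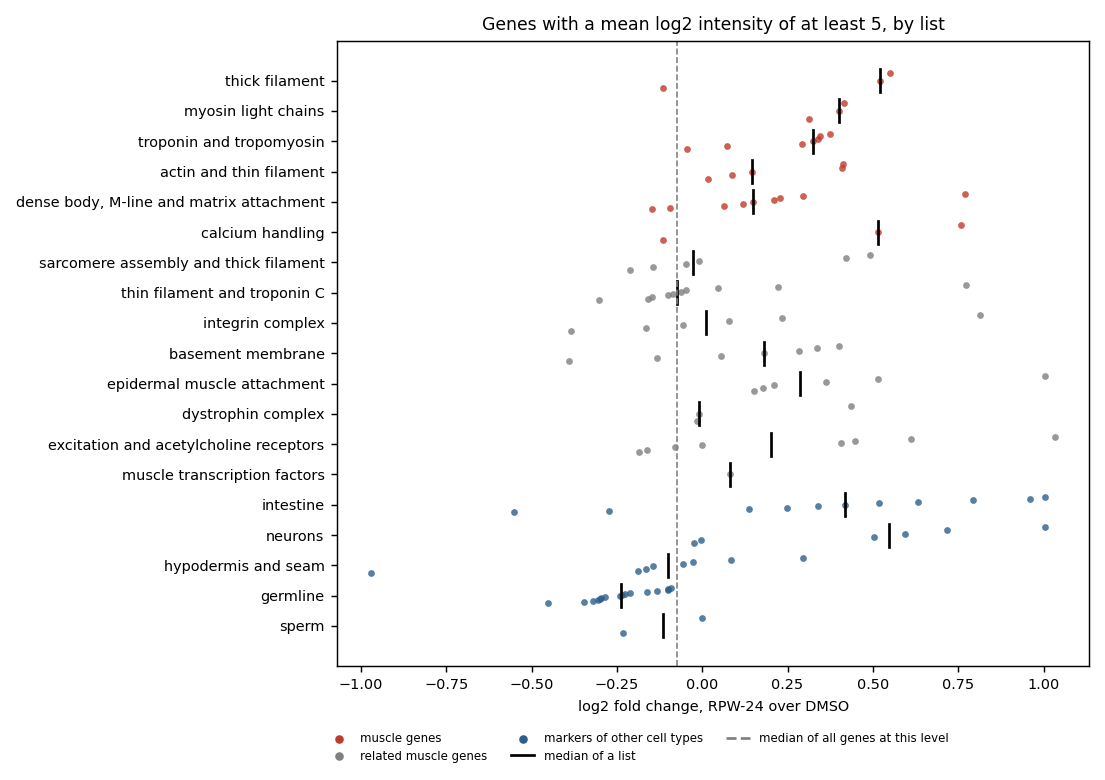
Log2 fold change of RPW-24 over DMSO for genes with a mean log2 intensity of at least 5, by list (1 point per gene, black bars for medians), with muscle genes at the top, related muscle genes in the middle and markers of other cell types at the bottom. The dashed line is the median of all genes at this level, -0.07, and their quartiles were -0.21 and 0.12. The 16 germline genes lie below 0, and 25 of the 30 muscle genes lie above it, of which *tni-1*, *act-3*, *unc-60* and *deb-1* fall below 0 once arrays are centred on their medians.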

How the data were processed

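Affymetrix arrays of whole animals were analysed, 3 per group. Per the labels and methods, the authors derived the deposited intensity values, 1 linear value per probe set and array, in GenePattern by GC-RMA followed by quantile normalization. The GC-RMA version was not given in the sources used here. Quantile normalization hides changes in total RNA. Precision is limited by the small number of arrays. Of 22625 probe sets, 77 controls were left out and 22548 were tested on the log2 scale with lmFit and eBayes (trend = TRUE) of limma 3.58.1, run in R 4.3.3, unpaired and with no filter on level, and adjusted over all of them by Benjamini-Hochberg. A gene was given by its brightest 1-gene probe set, the one with the highest mean log2 value over the 6 arrays. Of the 37 muscle probe sets, 23 end in _s_at or _x_at and can match several transcripts. Intervals are 95% intervals from limma. For 1 gene, an exact permutation test of 3 arrays against 3 cannot give a p below 0.1. Arrays are paired by letter because the design text has both exposures of a replicate done together, and deviations from group means over 13946 probe sets above the lowest value correlated at 0.0881, 0.144 and 0.138 for G, H and I. The muscle genes, the lists and the tests were chosen with earlier results of these data known. Every muscle gene could be named. Related genes were named at an adjusted p under 0.05 or as the lowest p of their role in each direction, and marker genes at an adjusted p under 0.05 (at most 2 a list in each direction). Alternatives were the letter as a block, a mean log2 value of at least 5, each array left out, no variance trend, 2 scalings, no probe sets ending in _s_at or _x_at, mean probe sets, values under 32 set to 32 and the methods' t-test (named there as a modified t-test, run here unpaired on linear intensities). Python 3.11.15, pandas 2.3.3, numpy 2.4.6 and matplotlib 3.10.9 made the tables and figures.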

Additional observations from a re-analysis of the deposited data

How the results depend on the processing

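The count of muscle genes higher at an adjusted p under 0.05 was 0, and 0 too with the replicate block, without the variance trend, without probe sets ending in _s_at or _x_at, with mean probe sets, with values under 32 set to 32 and by the methods' t-test. Leaving out probe sets ending in _s_at or _x_at kept 21 muscle genes, and *atn-1* and *cpn-3*, among others, could not be called there. It was 5 at a mean log2 value of at least 5, 8 there with the replicate block, 7 with arrays centred on their medians, 2 after a further quantile normalization, and 0 to 1 without 1 array in turn. The count lower was 0, against 3 with centring, 1 with values under 32 set to 32 and 0 to 1 without 1 array. Under that floor the RPW-24 arrays of *tnt-3*, the gene called, are all at 32 and have no spread. Centring moves every log2 fold change by -0.10, so *myo-1* and *myo-2* are called there with no signal. Related genes higher numbered 2, against 6 at a mean log2 value of at least 5, 8 there with the block, 8 with centring, 0 to 1 without 1 array, and 0 with the replicate block, without the trend, without probe sets ending in _s_at or _x_at, with values under 32 set to 32 and by the methods' t-test. Related genes lower numbered 0, against 34 with centring and 1 after quantile normalization. The median log2 fold change of the muscle genes was 0.15. It was 0.29 over genes at a mean log2 value of at least 5, with or without the block, 0.049 with centring and 0.14 after quantile normalization. It was 0.065 over the 21 genes left without probe sets ending in _s_at or _x_at, 0.18 by the methods' t-test and 0.12 to 0.24 without 1 array. The cause of these differences was not tested beyond their construction (fewer genes, fewer arrays).

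Before any alternative was applied no muscle gene had a call, so every changed sign belonged to a gene without one. With centring the log2 fold change was -0.028 for *tni-1*, -0.046 for *tnt-4*, -0.085 for *act-3*, -0.013 for *unc-60* and -0.037 for *deb-1*. After quantile normalization it was -0.023 for *myo-3*, -0.013 for *ttn-1*, -0.041 for *tni-1*, -0.069 for *tnt-4*, -0.058 for *act-3* and -0.077 for *deb-1*. With mean probe sets it was -0.040 for *unc-60*, -0.042 for *deb-1* and -0.044 for *unc-52*. Without 1 array it ranged from -0.15 to 0.032 for *unc-22*, -0.35 to 0.20 for *unc-89*, -0.047 to 0.22 for *ttn-1*, -0.068 to 0.24 for *tni-1*, -0.17 to 0.019 for *tni-4*, -0.036 to 0.077 for *act-3*, -0.021 to 0.16 for *unc-60*, -0.041 to 0.12 for *deb-1* and -0.17 to 0.29 for *unc-52*.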
